A study of Erythranthe pardalis x Erythranthe guttata and Erythranthe pardalis with 20 samples.

Results

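Among 28140 annotated genes of Mimulus, a set of 200 had its highest mean level in whole hybrid seeds at 6 days after pollination (DAP). Levels were in CPM, the counts of a gene scaled to the total count of its library, and were averaged within each of 5 ages. A gene was considered where its mean was at least 20 CPM at 6 DAP and the highest of its other 4 means was above 1 CPM, which 7697 genes met. Of these, 20 were set aside by name in the selection, and the 7677 others were ordered by the ratio of the 6 DAP mean to the highest other mean, after adding 0.5 CPM to each. The 200 genes with the largest ratios are described here. They were chosen on these measurements, so that values at 6 DAP set against any other age are a description, and no test of them is given. The mean at 6 DAP was a median of 5.15 times the highest other mean, and 41 genes were over 10 times while 30 were under 3 times. The set is therefore one of genes that peaked at 6 DAP, and only some of its genes were low at all other ages.

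RNA came from unfertilized ovules of SEC39, an inbred selfing line of M. pardalis (0 DAP, 5 libraries), and from seeds of SEC39 mothers pollinated by CSS4, an inbred line of M. guttatus, at 2 DAP (4 libraries), 4 DAP (3 libraries), 6 DAP (4 libraries) and 8 DAP (4 libraries). All seeds thus shared the same mother and father lines, the cross was made in 1 direction, and no seed of a cross within a species was included. The comparison of ages traces the seed transcriptome from before fertilization until the embryo, which is late globular at 6 DAP in the study's histology, reaches the heart stage at 8 DAP. Each library was made from 1 pool of ovules or seeds, and p-values measure only the spread between these pools. Whole seeds hold a maternal coat, an embryo and the endosperm, and in such bulk samples fewer cells of a type and less RNA per cell cannot be told apart.

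By Arabidopsis homologue or annotation words alone, part of the 200 genes could be tied to the building of secondary walls. These thick walls are laid down inside the primary wall by cells such as xylem vessels, fibres and hardened layers of seed coats, and consist of cellulose, the hemicellulose xylan and lignin. Lignin monomers are made from phenylalanine in the cytoplasm and are joined in the wall by laccases and peroxidases. Xylan is built in the Golgi from nucleotide sugars and is decorated with glucuronic acid and acetyl groups, while cellulose is spun at the plasma membrane along microtubules. NAC transcription factors of the NST type switch on this programme in Arabidopsis. Another part of the set is annotated as peptidases, protease inhibitors and small secreted proteins. Among them are cystatins, which block papain-like cysteine proteases and are common in seeds. Of the 200 genes, 88 fell into none of the lists of functions used below, and no list was tested.

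Total counts per library lay between 7588155 and 16529554, so that 3 counts, the number that a count of 0 still allows, came to 0.181 to 0.395 CPM. Such limits cover counting error only. A pair of libraries stood apart in these genes. The 2 DAP library of replicate 3 was the highest of its age in 173 of 199 genes of the set with a count at 2 DAP (86.9%), against 18.6% of all genes past the same minimum levels. Its level was a median of 3.50 times the mean of the other 2 DAP libraries (0.5 CPM added to both). At 8 DAP, the library of replicate 2 was the highest in 183 of the 200 genes (91.5%), against 49.6% of genes past the minimum levels. Its level was a median of 2.27 times the mean of the others of its age. Seed storage markers (homologues of OLE1, CRA1 and SESA4, 6 genes) summed to 771 CPM in this 8 DAP library and to between 3084 and 7312 CPM in the other libraries at 8 DAP. In 2 DAP replicate 3 the same storage markers stood at 7.94 CPM. The vascular list, read from the homologues of XCP2, VND7 and SUC2, summed to 132 CPM in 2 DAP replicate 3 (56.3 to 132 CPM over all 2 DAP libraries) and to 102 CPM in 8 DAP replicate 2 (49.6 to 102 CPM over all 8 DAP libraries), most of it from the SUC2 homologue. Endosperm markers (6 genes, homologues of ZOU and AGL62) summed to 11.2 to 14.5 CPM at 6 DAP, against at most 3.41 CPM in ovules, 15.6 to 25.7 CPM at 2 DAP, 9.50 to 10.8 CPM at 4 DAP and 15.5 to 21.3 CPM at 8 DAP. Embryo and maturation markers (7 genes) summed to 38.4 to 58.7 CPM at 6 DAP, against at most 3.10 CPM in ovules, 7.84 to 23.6 CPM at 2 DAP, 7.74 to 11.6 CPM at 4 DAP and 121 to 275 CPM at 8 DAP. Neither sum was thus highest at 6 DAP, since all libraries at 8 DAP were above all at 6 DAP for both, and all at 2 DAP for the endosperm list. Single markers, picked out once values were known, moved apart. Migut.N01183 (ZOU) had 7.81 to 11.2 CPM at 6 DAP against 0.754 to 1.51 CPM at 4 DAP. Migut.D01476 (AGL62) had at most 0.957 CPM at 6 DAP against 4.36 to 5.30 CPM at 4 DAP. Migut.M01289 (L1L) was highest at 6 DAP (18.4 to 27.2 CPM), while Migut.M01443 (L1L) had 93.9 to 223 CPM at 8 DAP. Genes of flavonoid synthesis (5 genes) summed to 446.76 to 1480.8 CPM at 6 DAP and 1968.8 to 2694.0 CPM at 8 DAP. They had at most 76.668 CPM in ovules, 213.79 CPM at 2 DAP and 322.76 CPM at 4 DAP. Green fruit tissue markers (3 genes) had 407.07 to 672.28 CPM at 6 DAP and 745.95 to 1106.8 CPM at 8 DAP. Their sums at the other ages ran from 298.84 to 677.24 CPM. For both lists 8 DAP replicate 2 was the highest library. The part of any of these tissues, or of the seed coat, in the results below was not tested.

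Together the 200 genes made up a mean of 5.40% of all counts at 6 DAP, and the mean of any other age was at most 0.944%. Single libraries reached 1.65% (8 DAP replicate 2) and 1.38% (2 DAP replicate 3). Their summed level was 56942, 58497, 50301 and 50081 CPM in the 4 libraries at 6 DAP. It was 2168, 2226, 1768, 1234 and 1129.6 CPM in the 5 ovule libraries, 3208, 4201, 13764 and 4600.5 CPM at 2 DAP, 8959, 7587 and 8995 CPM at 4 DAP and 8057, 16515, 6603 and 6569 CPM at 8 DAP. Every library at 6 DAP was thus above every library of another age, including both that stood apart. The means were 1705 ± 510.69 (SD, n = 5), 6444 ± 4915 (n = 4), 8513 ± 803 (n = 3), 53955 ± 4393 (n = 4) and 9436 ± 4770.0 CPM (n = 4) from 0 to 8 DAP. Without 2 DAP replicate 3 the mean at 2 DAP was 4004 CPM, and without 8 DAP replicate 2 the mean at 8 DAP was 7076 CPM. Vascular markers summed to 153 to 206 CPM at 6 DAP, against 142 to 308 CPM in ovules, 56.3 to 132 CPM at 2 DAP, 91.6 to 141 CPM at 4 DAP and 49.6 to 102 CPM at 8 DAP. The homologues of XCP2 and VND7 mark xylem. That of XCP2 had 2.63 to 6.18 CPM at 6 DAP, against 4.42 to 12.2 CPM in ovules. It had 1.90 to 5.92 CPM at 2 DAP, 2.91 to 4.97 CPM at 4 DAP and 0.222 to 11.4 CPM at 8 DAP. That of VND7 had 0.776 to 16.9 CPM in ovules and at most 0.909 CPM at 6 DAP, 1.18 CPM at 2 DAP, 1.02 CPM at 4 DAP and 0.537 CPM at 8 DAP.

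**Figure D1:**
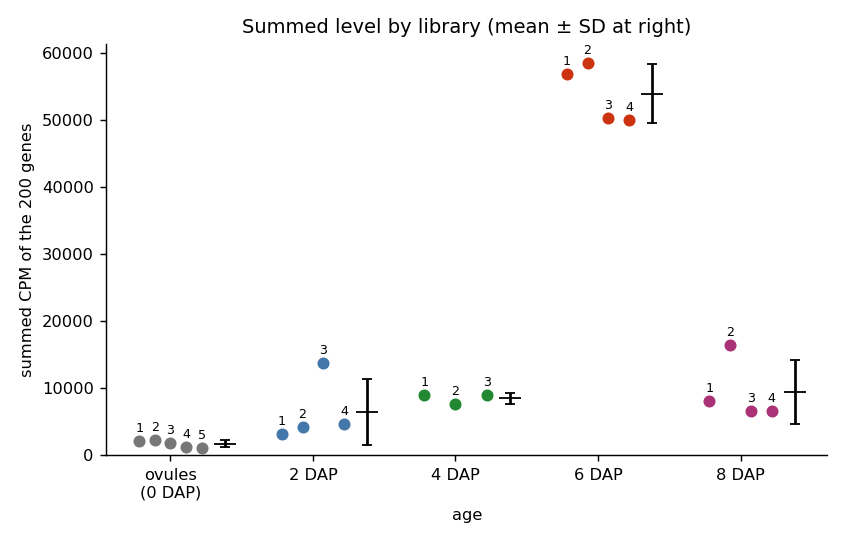
Summed level of the 200 genes in each of the 20 libraries (y axis, CPM) by age (x axis, DAP), each point 1 library with its replicate number and bars the mean with its SD. The 4 libraries at 6 DAP lie between 50081 and 58497 CPM, 2 DAP replicate 3 at 13764 CPM and 8 DAP replicate 2 at 16515 CPM.

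Of the 200 genes, 188 had all 4 libraries at 6 DAP above all 16 other libraries, beside 3.53% of all genes tested, a count that follows in large part from the selection. In the 12 others the highest library outside 6 DAP, which reached into the range of 6 DAP, was 2 DAP replicate 3 in 7 genes and 8 DAP replicate 2 in 5. The ratio was largest for Migut.N00721, a cystatin, with 85.9, 118.72, 54.9 and 85.2 CPM at 6 DAP, against 0 CPM in ovules, 0 to 2.61 CPM at 2 DAP, 0.0754 to 0.436 CPM at 4 DAP and 0 to 4.30 CPM at 8 DAP. At the other end, the last genes admitted were Migut.B00982, Migut.B00112 and Migut.B00084 with ratios of 2.61, 2.59 and 2.58. The first ones left out, Migut.H00953, Migut.H01728 and Migut.G00464, had ratios of 2.56, 2.56 and 2.55, so the limit of 200 falls within a continuous range. Levels at 6 DAP ran from 20.3 to 7928 CPM with a median of 79.9 CPM, against a median of 47.6 CPM over all genes past the minimum levels.

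**Figure D2:**
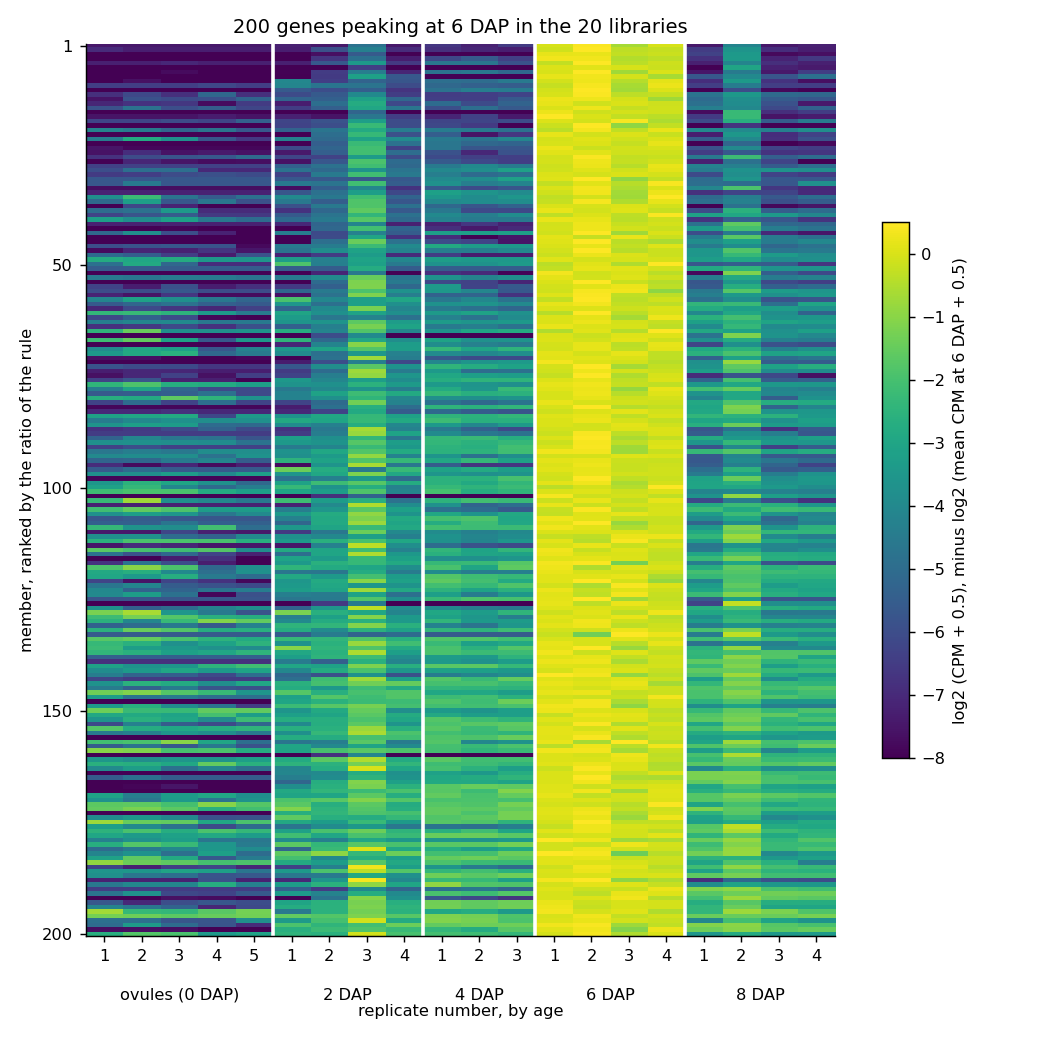
Level of each of the 200 genes (rows) in each of the 20 libraries (columns, grouped by age in DAP) as log2(CPM + 0.5) minus the mean of its 6 DAP libraries. The 6 DAP columns are near 0 throughout, and 2 DAP replicate 3 and 8 DAP replicate 2 are closer to them than the other libraries of their ages.

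The selection treated 0, 2, 4 and 8 DAP alike, so differences between ages other than 6 DAP could be tested. By the quasi-likelihood F test of edgeR, with p-values adjusted after Benjamini and Hochberg over all 20242 genes tested (threshold 0.01), 35 of the 200 genes (17.5%) were higher at 8 DAP than at 4 DAP, beside 12.3% of all genes tested, and 4 (2.0%) were lower, beside 10.7%. The median log2 fold change was 0.59 over the 200 genes and -0.05 over all genes tested. This comparison leaned on single libraries. Without 8 DAP replicate 2, 19 genes were higher, 12 were lower and the median was 0.26, while without 4 DAP replicate 1, 2 or 3 the higher genes numbered 16, 14 and 14. The 4 lower genes became 2 without 4 DAP replicate 3, 1 without 8 DAP replicate 1 and 1 without 8 DAP replicate 3. Scaling by library totals in place of TMM (trimmed mean of M values) shifted the median of all genes to -0.63 and that of the 200 to 0.04, with 23 higher and 9 lower.

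A part of the set was already higher at 4 DAP than in ovules. The ovules were unfertilized and of SEC39 alone, while the seeds were hybrids with CSS4. In every comparison of 4 DAP with ovules, age, fertilization, the new seed tissues and the CSS4 genome therefore cannot be told apart. In the same test 79 of the 200 genes (39.5%) were higher at 4 DAP than in ovules, beside 11.2% of all genes tested, and 1 gene (0.5%) was lower, beside 9.99%. The median log2 fold change was 2.06 over the set and -0.07 over all genes tested, and it was 2.02 over 197 genes when genes with no count in one group were set at the bound that 3 counts per library give. All 5 ovule libraries held no count of 16 genes. The count depended on whether the maternal plant entered the model: with the plant as a block, which fits ovule replicates 3 to 5 exactly, 30 genes were higher and 2 lower. The 1 lower gene became 2 without ovule replicate 2 or ovule replicate 5.

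**Figure D3:**
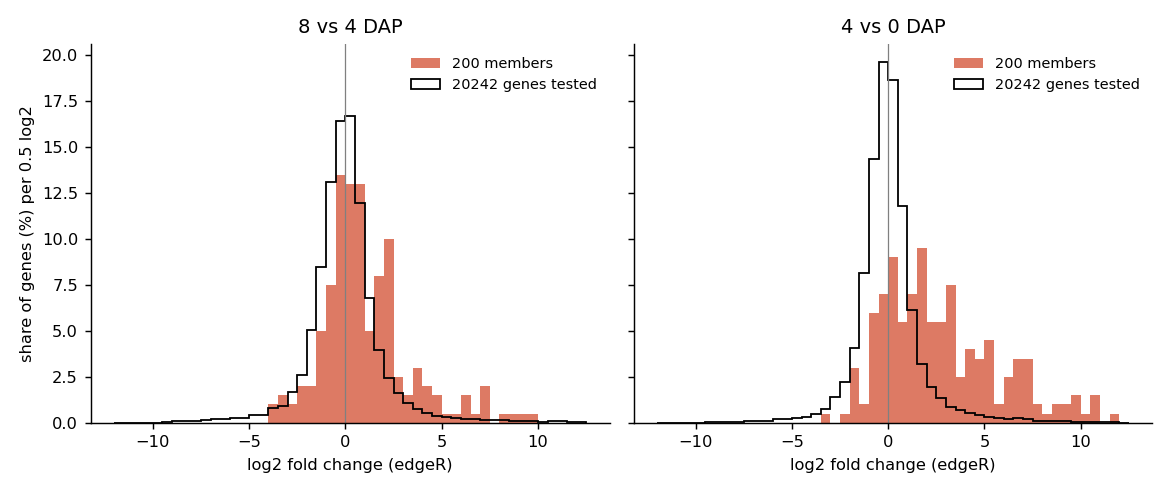
Distribution of log2 fold changes (x axis) as the share of genes in percent (y axis) for the 200 genes and for all 20242 genes tested, for 8 over 4 DAP and for 4 DAP over ovules. The 200 genes have medians of 0.59 and 2.06, all genes tested -0.05 and -0.07.

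Annotations were taken from the study's supplementary tables, which pair 193 of the 200 genes with an annotation and 184 with a homologue in Arabidopsis. The tables at hand cover 5068 of 28140 genes, many of them listed because they changed over these libraries, so counts of family members below are of annotated genes only. With 11 lists of functions, 112 of the 200 genes fell into a list and 88 into none. Calls per list below are to be read beside the shares over all genes tested. These were 11.2% higher at 4 DAP than in ovules, and 12.3% higher and 10.7% lower at 8 DAP than at 4 DAP. Over the 200 genes the same shares were 39.5%, 17.5% and 2.0%. No list was tested against either. No annotated gene of the cell cycle and chromatin list, 49 of which were tested, belonged to the set. Over all 5068 annotated genes 193 did, and membrane transport (3.90%) and transcription factors (3.95%) lay close to that share. Shares of the other lists with members ran from 9.17% to 40.9%. Neither these shares nor the absence of cell cycle genes was tested.

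**Figure D4:**
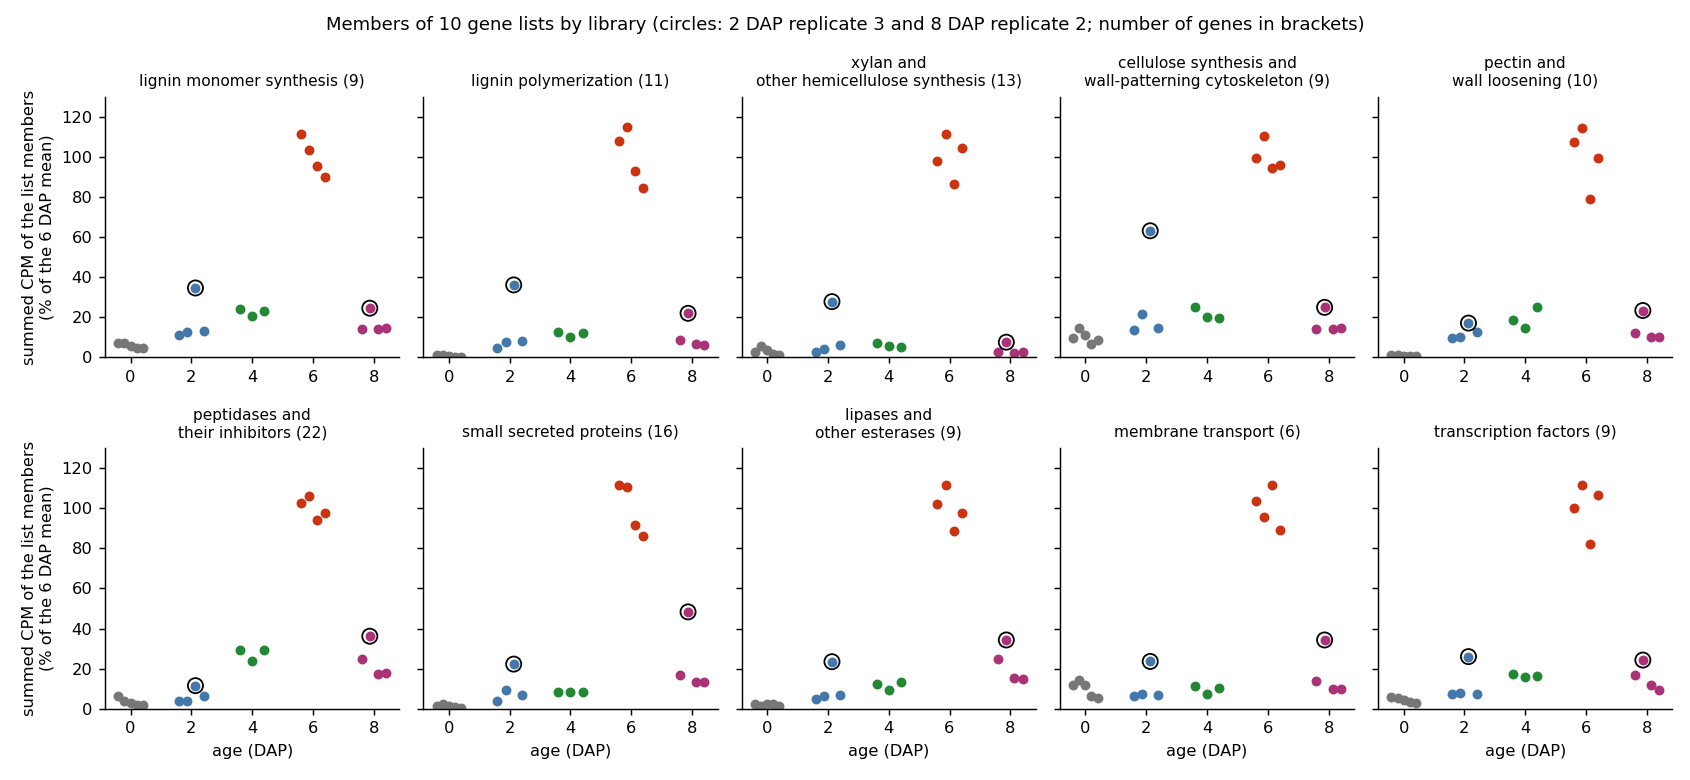
Summed CPM of the genes of the set in each of 10 functional lists, as a percent of the 6 DAP mean of that list (y axis), by age in DAP (x axis), with 1 point per library and circles around 2 DAP replicate 3 and 8 DAP replicate 2. The 6 DAP libraries lie around 100%, and the circled libraries are the highest of their ages in all 10 lists.

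Genes of lignin monomer synthesis provided 9 members, of 25 annotated genes. Their sum was 5646, 5236, 4840.3 and 4565 CPM at 6 DAP, against 242 to 369 CPM in ovules, 564 to 1757 CPM at 2 DAP, 1046 to 1216 CPM at 4 DAP and 718 to 1246 CPM at 8 DAP. The upper ends at 2 and 8 DAP are those of 2 DAP replicate 3 (1757 CPM) and 8 DAP replicate 2 (1246 CPM). Migut.F00144, the homologue of OMT1, which methylates precursors of syringyl lignin, had 2663, 2025, 2253 and 2216 CPM at 6 DAP, against 17.2 to 44.7 CPM in ovules, 281 to 976 CPM at 2 DAP, 898, 771 and 891 CPM at 4 DAP and 349.8, 698, 351 and 355 CPM at 8 DAP. It rose at 4 DAP relative to ovules (log2 fold change 4.56 ± 0.47 (SE), edgeR adjusted p = 3.7e-07) with all libraries apart. Migut.B00364, for CCoAOMT1, another methyltransferase of the pathway, had 999, 1169, 957 and 833 CPM at 6 DAP, against at most 320.4 CPM in any other library. Migut.B00391, for CAD4, which makes the last reduction to the monomer, was at 884, 974, 662 and 626 CPM at 6 DAP, and its highest other age was the ovule (145, 214.48, 121, 112 and 85.4 CPM). Of the 9 genes, 2 rose at 4 DAP relative to ovules, and 3 rose at 8 DAP relative to 4 DAP. These last 3, which were picked out once values were known, were Migut.D01162 for 4CL2, which activates the hydroxycinnamic acids (log2 fold change 2.77), Migut.D01132 for HCT, which leads into the branch of guaiacyl and syringyl units (2.13), and Migut.N01182, a further CCoAOMT1 homologue (1.24). Among the 16 other tested genes of the list, 10 also had their highest mean at 6 DAP, where 14.2% of all genes tested did. Genes set aside by name in the selection were not removed from these 16. The count uses the 6 DAP values of the selection and is a description. Many annotated genes were listed because they changed over these libraries.

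Laccases, peroxidases and dirigent proteins, the lignin polymerization list, gave 11 members of 44 annotated genes. The sum was 7196, 7649.8, 6191 and 5625 CPM at 6 DAP, against 14.6 to 94.1 CPM in ovules, 321 to 2411 CPM at 2 DAP, 668 to 831 CPM at 4 DAP and 432 to 1468 CPM at 8 DAP. Migut.J00316, a homologue of LAC17, a laccase needed for stem lignin in Arabidopsis, had 1134, 846, 1165 and 895 CPM at 6 DAP, against 0 to 0.791 CPM in ovules, 0.482, 14.8, 125 and 8.95 CPM at 2 DAP, 7.93, 2.94 and 5.16 CPM at 4 DAP and 46.0, 313, 45.0 and 34.0 CPM at 8 DAP. It rose at 8 DAP relative to 4 DAP (log2 fold change 4.85 ± 1.25 (SE), edgeR adjusted p = 0.00493), with no overlap. This call was lost without 8 DAP replicate 2 (log2 fold change 3.60, adjusted p = 0.0175) and without 4 DAP replicate 1, 2 or 3 (adjusted p = 0.0178, 0.0281 and 0.0267). It was also lost with the maternal plant as a block (adjusted p = 0.0192) or the title number as a block (adjusted p = 0.0102), with no filter on low counts (adjusted p = 0.0102) and with 4 and 8 DAP fitted alone (adjusted p = 0.0115). The peroxidase Migut.N03181 was at 2853, 4000.1, 2447 and 2072 CPM at 6 DAP, and at 39.0, 35.1 and 19.8 CPM at 4 DAP against 0 to 0.833 CPM in ovules (log2 fold change 7.33 ± 1.52 (SE), edgeR adjusted p = 0.000911). With the plant as a block its adjusted p was 0.0986. Migut.N01245, for LAC11, had some of the closest values at 6 DAP, 51.4, 52.2, 56.7 and 55.8 CPM. Of the 11 genes, 6 rose at 4 DAP relative to ovules and 1, the LAC17 homologue, rose at 8 DAP relative to 4 DAP.

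Xylan and other hemicellulose synthesis gave 13 members of 36 annotated genes, and its sum was 2398, 2715, 2108 and 2551 CPM at 6 DAP. The sums were 30.6 to 146 CPM in ovules, 68.6 to 680.2 CPM at 2 DAP, 133 to 175.93 CPM at 4 DAP and 56.1 to 187 CPM at 8 DAP. Migut.H01266, for MUR4, the epimerase that turns UDP-xylose into UDP-arabinose, had 545, 610.2, 516 and 575 CPM at 6 DAP, against 5.31 to 79.5 CPM in ovules, 29.7, 16.3, 65.3 and 37.1 CPM at 2 DAP, 20.8 to 31.5 CPM at 4 DAP and 4.51 to 33.5 CPM at 8 DAP. Its highest library outside 6 DAP was an ovule library. Migut.F00633, for TBL33, an acetyltransferase of xylan, was at 362, 406, 298 and 379 CPM at 6 DAP, and rose at 4 DAP (50.0, 36.4 and 32.2 CPM) relative to ovules (5.27, 6.07, 6.66, 6.05 and 1.15 CPM; log2 fold change 3.02 ± 0.52 (SE), edgeR adjusted p = 0.000159). Migut.C01347, a DUF579 protein of a family that includes methyltransferases of glucuronoxylan, was at 419.8, 492, 338 and 499 CPM at 6 DAP. It too rose at 4 DAP, with 30.2, 22.3 and 19.5 CPM against 0.158 to 1.15 CPM in ovules (log2 fold change 5.10 ± 0.98 (SE), edgeR adjusted p = 0.000431). With the plant as a block neither call was kept, with an adjusted p of 0.0214 for Migut.F00633 and 0.0789 for Migut.C01347. Of the 13 genes, 6 rose at 4 DAP relative to ovules and 0 were called between 8 and 4 DAP by edgeR or DESeq2, with 3 higher at an unadjusted p under 0.05. Their median log2 fold change between 8 and 4 DAP was 0.06. Among the 23 other tested genes of the list, 16 had their highest mean at 6 DAP, beside 14.2% of all genes tested, and 14 had all 6 DAP libraries above all others, beside 3.53%. Genes set aside by name in the selection were not removed from these 23. Both counts use the 6 DAP values of the selection and are a description. Many annotated genes were listed because they changed over these libraries. In the further lists, other tested genes highest at 6 DAP were 10 of 11 (cellulose and cytoskeleton) and 9 of 27 (lignin polymerization). They were 26 of 85 (peptidases), 26 of 132 (small secreted proteins), 15 of 75 (lipases) and 14 of 89 (pectin). For membrane transport they were 23 of 131, for transcription factors 47 of 192 and for the cell cycle 9 of 49.

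The list of cellulose synthesis and wall-patterning cytoskeleton gave 9 members of 22 annotated genes. Its sum was 1627, 1802, 1548 and 1567 CPM at 6 DAP, against 111 to 244 CPM in ovules, 226 to 1033 CPM at 2 DAP, 320.5 to 409.8 CPM at 4 DAP and 232 to 409 CPM at 8 DAP. Migut.B00472, for the alpha-tubulin TUA2, had 911, 889, 983 and 713 CPM at 6 DAP, against 124, 279.7, 607 and 126 CPM at 2 DAP and 273, 203 and 206 CPM at 4 DAP. Migut.L01661, for RIP3, a partner of ROP GTPases on cortical microtubules, had 103, 121, 78.1 and 209 CPM at 6 DAP, against at most 29.0 CPM in any other library. Migut.B00084, for a ROP GTPase (RAC-like 3), had 342, 466, 249.8 and 358 CPM at 6 DAP and 334 CPM in 2 DAP replicate 3, within the range of 6 DAP. By edgeR's test 0 of the 9 genes were called at 4 DAP relative to ovules, where 4 were higher at an unadjusted p under 0.05 and DESeq2 called 3 higher. Between 8 and 4 DAP, 0 were called by edgeR, by DESeq2 or at an unadjusted p under 0.05.

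Pectin and wall loosening gave 10 members of 109 annotated genes, with a sum of 3791, 4042, 2780.1 and 3503 CPM at 6 DAP, against 23.5 to 48.7 CPM in ovules, 334 to 605 CPM at 2 DAP, 524 to 881 CPM at 4 DAP and 364 to 826 CPM at 8 DAP. Among them were beta-expansins, a family that loosens the walls of growing cells, for EXPB4 (Migut.F01690) and EXPB2 (Migut.F01692). Migut.F01690 had 752, 875, 424 and 770.1 CPM at 6 DAP, against 0 to 0.388 CPM in ovules, 97.2, 132, 153 and 183 CPM at 2 DAP, 214.22, 157 and 337 CPM at 4 DAP and 114.06, 143.63, 108 and 104 CPM at 8 DAP. Migut.F01692 had 579, 693, 359.9 and 519.7 CPM at 6 DAP, 151, 123 and 201 CPM at 4 DAP and 0 to 0.227 CPM in ovules. Both rose at 4 DAP relative to ovules, Migut.F01690 by a log2 fold change of 10.20 and Migut.F01692 by 10.66. Ovule levels of both were near or below the limit of 3 counts, so the size of these rises is uncertain. Migut.A00117, for PMEI1, an inhibitor of pectin methylesterases, had 766, 589, 627 and 599 CPM at 6 DAP, and 2.47, 132, 5.06 and 6.89 CPM at 8 DAP against 0.423 to 0.872 CPM at 4 DAP (log2 fold change 6.31 ± 1.59 (SE), edgeR adjusted p = 0.00413). This call too was lost without 8 DAP replicate 2 (log2 fold change 3.57, adjusted p = 0.0267) and without 4 DAP replicate 1, 2 or 3 (adjusted p = 0.0245, 0.0212 and 0.0204). The same held with the plant as a block (adjusted p = 0.0308) and with 4 and 8 DAP fitted alone (adjusted p = 0.0451). Of the 10 genes, 6 rose at 4 DAP relative to ovules, while 2 rose and 1 fell at 8 relative to 4 DAP. The others called at 8 DAP, also picked out once values were known, were Migut.A00120, a further PMEI1 homologue (log2 fold change 3.97), and Migut.C01381, for the xyloglucan endotransglucosylase XTH2 (-2.77).

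Peptidases and their inhibitors were the largest list, with 22 members of 127 annotated genes, and held 6 of the 10 genes with the largest ratios. The sum was 11162, 11515, 10215 and 10616 CPM at 6 DAP, against 184 to 669.6 CPM in ovules, 400.5 to 1254 CPM at 2 DAP, 2614 to 3194 CPM at 4 DAP and 1883 to 3934 CPM at 8 DAP. Migut.K01192, a cystatin, had 681, 709.7, 645 and 575 CPM at 6 DAP. At 8 DAP it had 1.16, 78.7, 3.89 and 3.41 CPM, against 0.121, 0.301 and 0.0726 CPM at 4 DAP (log2 fold change 7.44 ± 1.57 (SE), edgeR adjusted p = 0.00105), with the libraries of both ages apart. It was at 0.0688, 1.98, 7.13 and 0.592 CPM at 2 DAP and at 0 to 0.0776 CPM in ovules. The cystatin A homologue Migut.I00156 had 714, 705, 406 and 443 CPM at 6 DAP, against 0 to 0.155 CPM in ovules, 0.275, 5.03, 19.2 and 3.03 CPM at 2 DAP, 7.38, 11.5 and 6.32 CPM at 4 DAP and 4.66, 54.8, 3.50 and 5.33 CPM at 8 DAP. Its rise at 4 DAP relative to ovules (log2 fold change 6.72 ± 1.31 (SE), edgeR adjusted p = 0.000485) was not called with the plant as a block (adjusted p = 0.0999) or with libraries 1 to 14 alone (adjusted p = 0.0196). Without 8 DAP replicate 2 the log2 fold change of Migut.K01192 between 8 and 4 DAP was 4.68, adjusted p = 0.00362, while with 4 and 8 DAP fitted alone its call was lost (adjusted p = 0.0418). Another cystatin, Migut.O00215, had 153, 195, 119.11 and 177.96 CPM at 6 DAP and at most 15.046 CPM elsewhere.

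Aspartyl proteases of the eukaryotic pepsin type made up part of the same list. Migut.M00595 had 71.7, 111, 61.2 and 65.8 CPM at 6 DAP, against 0 to 0.132 CPM in ovules, 0 to 3.41 CPM at 2 DAP, 0 to 0.181 CPM at 4 DAP and 0 to 5.91 CPM at 8 DAP. Its neighbour Migut.M00590 had 62.6, 112, 58.5 and 68.6 CPM at 6 DAP and at most 6.58 CPM in any other library. The serine carboxypeptidase homologue Migut.D02284 (scpl48) had the highest CPM of the set, a scale that does not allow for transcript length. It was at 7919, 7944, 7809.7 and 8039.6 CPM at 6 DAP, against 593, 318, 267, 142 and 159 CPM in ovules, 319, 347, 1075 and 601 CPM at 2 DAP, 3071, 2487 and 3068 CPM at 4 DAP and 2580.1, 3358, 1822 and 1861 CPM at 8 DAP. It was not low at 4 or 8 DAP, and the 6 DAP libraries differed by no more than 1.03-fold. It rose at 4 DAP relative to ovules (log2 fold change 3.39 ± 0.44 (SE), edgeR adjusted p = 7.1e-06). Migut.B00982, a serine protease inhibitor of the potato inhibitor I type, had 76.9, 82.3, 36.0 and 49.6 CPM at 6 DAP and 29.0, 30.6, 17.9 and 15.2 CPM at 8 DAP. Of the 22 genes, 7 rose at 4 DAP relative to ovules and 5 rose at 8 DAP relative to 4 DAP. The 5, all but Migut.K01192 picked out once values were known, were this cystatin, the aspartyl proteases Migut.N01679, Migut.N01680 and Migut.M00596 and the protease inhibitor Migut.C00655.

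Small secreted proteins gave 16 members of 154 annotated genes, among them defensin-like proteins, lipid-transfer proteins and homologues of the self-incompatibility protein S1. The sum was 7541, 7466, 6192 and 5821 CPM at 6 DAP, against 25.9 to 174 CPM in ovules, 274 to 1504 CPM at 2 DAP, 549 to 579 CPM at 4 DAP and 1138, 3262, 900.1 and 886 CPM at 8 DAP. Several defensin-like genes stood higher at 8 DAP than at 4 DAP. Migut.E00742 (PDF2.4) had 1145, 792, 848 and 697 CPM at 6 DAP, and 70.4, 463, 94.6 and 73.5 CPM at 8 DAP against 0.665, 0.528 and 0.654 CPM at 4 DAP (log2 fold change 8.63 ± 1.38 (SE), edgeR adjusted p = 6.4e-05). Migut.E00740 (PDF2.5) had 1551, 1419.9, 1793 and 1162 CPM at 6 DAP, and 380.1, 1008, 260.1 and 267 CPM at 8 DAP against 5.38, 4.97 and 1.74 CPM at 4 DAP (log2 fold change 7.40 ± 1.29 (SE), edgeR adjusted p = 0.000168). Both were near 0 in ovules, with at most 0.922 CPM for Migut.E00742 and 0.454 CPM for Migut.E00740. Migut.J01354 (LCR75) had 1013, 697, 1065 and 800.0 CPM at 6 DAP, and 11.2, 739, 63.6 and 64.4 CPM at 8 DAP against 0.726, 0.151 and 0 CPM at 4 DAP (log2 fold change 9.89 ± 1.95 (SE), edgeR adjusted p = 0.000552). Its value in 8 DAP replicate 2 lay within the range of 6 DAP. Without that library the log2 fold changes were 7.63, adjusted p = 0.000116 for Migut.E00742, 6.84, adjusted p = 0.000367 for Migut.E00740 and 7.84, adjusted p = 0.00109 for Migut.J01354. With 4 and 8 DAP fitted alone the call of Migut.J01354 was lost (adjusted p = 0.0145).

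**Figure D5:**
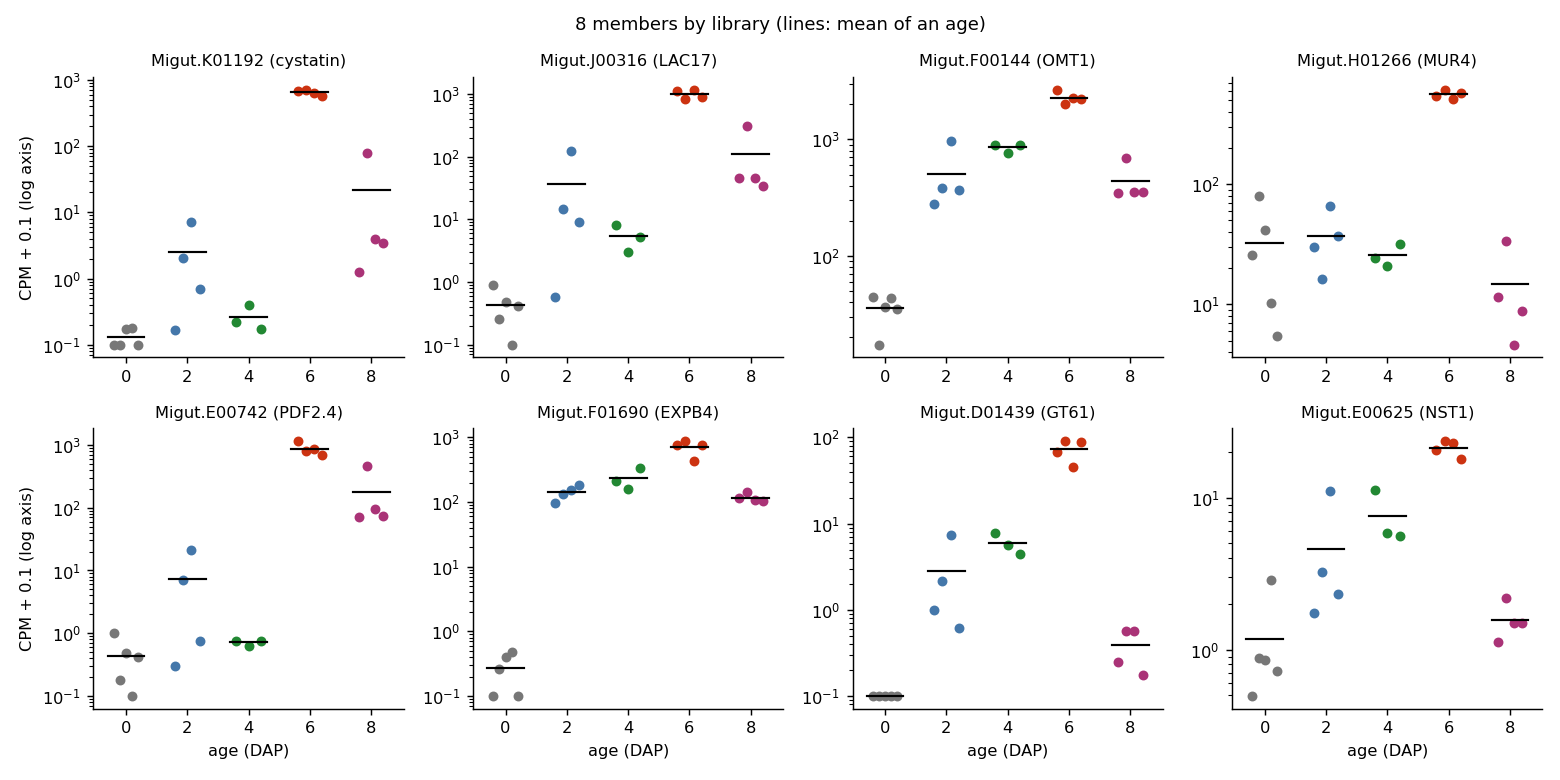
Level of 8 genes of the set (CPM + 0.1 on a log axis) by age in DAP, with 1 point per library and short lines at the means. Points at 6 DAP are the highest in each panel, and 4 and 8 DAP differ most for Migut.K01192, Migut.J00316 and Migut.E00742, which are higher at 8 DAP, and for Migut.D01439, which is lower.

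Other small secreted proteins differed in whether they were detected at 4 DAP. Migut.L00621 (LCR70) had no count in any ovule library and 19.9, 18.6 and 21.2 CPM at 4 DAP, which is at least 70.9-fold higher (edgeR adjusted p = 0.000159), and 112, 166, 84.0 and 93.6 CPM at 6 DAP. Migut.L00497, a lipid-transfer protein, had 1402, 1741, 1172 and 1253 CPM at 6 DAP and rose at 4 DAP, with 196, 189.8 and 166 CPM against 0 to 0.454 CPM in ovules (log2 fold change 9.59 ± 0.85 (SE), edgeR adjusted p = 5.1e-08). Migut.G01124, of the same family, had no count at 4 DAP and 0.582, 18.6, 1.79 and 1.19 CPM at 8 DAP, at least 26.5-fold higher, or at least 5.69-fold without replicate 2 (edgeR adjusted p = 0.00142), beside 19.8, 8.78, 36.6 and 27.7 CPM at 6 DAP. Most of its level at 8 DAP lay in replicate 2. The call was kept without that library (adjusted p = 0.00121) but lost with libraries 1 to 14 alone (adjusted p = 0.0126) and with 4 and 8 DAP fitted alone (adjusted p = 0.0475). Migut.F00958, an S1 homologue, had 196, 394, 118 and 186 CPM at 6 DAP, against 2.34, 3.13, 45.5 and 2.96 CPM at 2 DAP and at most 1.61 CPM at 8 DAP. Of the 16 genes, 11 rose at 4 DAP relative to ovules and 6 rose at 8 DAP relative to 4 DAP. With the plant as a block the adjusted p of Migut.L00621 at 4 DAP relative to ovules was 0.0444.

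Lipases and other esterases gave 9 members of 92 annotated genes and summed to 2010.1, 2201, 1751 and 1929.8 CPM at 6 DAP, against 27.5 to 50.0 CPM in ovules, 91.6 to 463 CPM at 2 DAP, 188 to 265 CPM at 4 DAP and 297 to 677 CPM at 8 DAP. Migut.A01152, an alpha/beta-hydrolase, had 35.6, 54.5, 27.5 and 50.3 CPM at 6 DAP and at most 1.93 CPM in any other library. Its neighbour and homologue of the same Arabidopsis gene, Migut.A01151, had 40.2, 54.6, 24.5 and 43.6 CPM at 6 DAP, and 0.218, 1.92, 0 and 0.370 CPM at 8 DAP against 6.78, 6.18 and 9.30 CPM at 4 DAP (log2 fold change -3.02 ± 0.77 (SE), edgeR adjusted p = 0.00434). This fall was not called without 4 DAP replicate 1 or 3 (adjusted p = 0.0104 and 0.0171), without 8 DAP replicate 1, 3 or 4 (adjusted p = 0.0170, 0.0123 and 0.0159), or with the plant as a block (adjusted p = 0.0132). The GDSL lipase Migut.K01413 moved the other way, with 646, 723, 529.20 and 669 CPM at 6 DAP, and 278, 289.6, 135 and 142 CPM at 8 DAP against 72.3, 58.0 and 94.9 CPM at 4 DAP (log2 fold change 2.05 ± 0.41 (SE), edgeR adjusted p = 0.000582). Another GDSL lipase, Migut.H00518, had 670, 849, 659 and 610 CPM at 6 DAP. It had 70.9, 168, 32.9 and 25.4 CPM at 8 DAP against 5.57, 3.54 and 4.94 CPM at 4 DAP (log2 fold change 4.50 ± 1.15 (SE), edgeR adjusted p = 0.00478). This call was lost without 8 DAP replicate 2, without 4 DAP replicate 1, 2 or 3 and with the plant as a block. Migut.O00249, for the carboxyesterase CXE18, was at 423, 307, 363 and 399 CPM at 6 DAP. Of the 9 genes, 5 rose at 4 DAP relative to ovules, and 2 rose and 1 fell at 8 relative to 4 DAP.

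Membrane transport gave 6 members of 154 annotated genes, with a sum of 1217, 1120.3, 1309 and 1045 CPM at 6 DAP, against 60.8 to 166 CPM in ovules, 77.4 to 277 CPM at 2 DAP, 87.7 to 133 CPM at 4 DAP and 116 to 402 CPM at 8 DAP. Migut.B01780, for FRO2, which reduces ferric iron for uptake, had 891, 827, 986 and 816 CPM at 6 DAP, against 72.0, 94.8, 86.6, 27.3 and 25.7 CPM in ovules, 44.4 to 135 CPM at 2 DAP, 51.6 to 84.8 CPM at 4 DAP and 141, 333, 87.5 and 89.2 CPM at 8 DAP. Migut.K00357, for AHA8, a proton pump of the plasma membrane, had 87.1, 59.3, 75.0 and 59.4 CPM at 6 DAP, and its highest other age was the ovule, at 21.7, 17.3, 15.972, 20.2 and 4.48 CPM. Migut.D02237, a nucleotide sugar transporter that is also on the hemicellulose list, was at 117, 109, 126 and 81.7 CPM at 6 DAP and 23.7, 44.0, 31.1, 17.6 and 16.1 CPM in ovules. Of the 6 genes, 1 rose at 4 DAP relative to ovules and 0 were called between 8 and 4 DAP by edgeR's test, while 2 were higher at an unadjusted p under 0.05 and 2 by DESeq2.

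Transcription factors gave 9 members of 228 annotated genes, with a sum of 274, 306, 225 and 292 CPM at 6 DAP, against 8.54 to 15.8 CPM in ovules, 20.2 to 71.3 CPM at 2 DAP, 43.3 to 47.7 CPM at 4 DAP and 25.6 to 66.6 CPM at 8 DAP. Migut.E00625, the homologue of NST1, had 20.6, 23.4, 22.6 and 17.8 CPM at 6 DAP, against 0.395, 0.788, 0.757, 2.79 and 0.625 CPM in ovules, 1.65, 3.13, 11.041 and 2.22 CPM at 2 DAP, 11.1, 5.73 and 5.52 CPM at 4 DAP and 1.02, 2.07, 1.40 and 1.41 CPM at 8 DAP. It rose at 4 DAP relative to ovules (log2 fold change 2.68 ± 0.64 (SE), edgeR adjusted p = 0.00302). This rise was not called without 4 DAP replicate 1 (log2 fold change 2.28, adjusted p = 0.0237), with the plant as a block (adjusted p = 0.0101) or with ovules and 4 DAP fitted alone (adjusted p = 0.0134). Migut.C00771, for the homeodomain protein BLH7, had 38.4, 48.6, 36.8 and 65.6 CPM at 6 DAP, and 2.54, 1.81 and 2.76 CPM at 4 DAP against 0.132, 0.394, 0.530, 0 and 0 CPM in ovules (log2 fold change 3.40 ± 0.86 (SE), edgeR adjusted p = 0.00445). Its call at 4 DAP was lost without ovule replicate 1, 4 or 5 (adjusted p = 0.0108, 0.0117 and 0.0108) and without 4 DAP replicate 1 or 3 (adjusted p = 0.0143 and 0.0157). It was lost too with the plant as a block (adjusted p = 0.128) and with ovules and 4 DAP fitted alone (adjusted p = 0.0122). Migut.D02416, for OFP6, an ovate family protein, had 22.8, 23.5, 25.8 and 24.6 CPM at 6 DAP, 1.31, 1.90, 13.1 and 0.814 CPM at 2 DAP and at most 1.51 CPM in the libraries of other ages.

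A pair of class IV homeodomain genes, a class known from the epidermis in Arabidopsis, were also among these factors. Migut.M00283 (HDG2) had 31.8, 28.1, 22.1 and 22.6 CPM at 6 DAP, and 6.05, 6.86 and 2.91 CPM at 4 DAP against 0 to 0.0788 CPM in ovules (log2 fold change 7.56 ± 1.05 (SE), edgeR adjusted p = 1.4e-05). Migut.H01063 (PDF2) had 31.8, 45.3, 23.3 and 32.9 CPM at 6 DAP, and 8.47, 9.80 and 10.7 CPM at 4 DAP against 0 to 1.26 CPM in ovules (log2 fold change 4.65 ± 0.72 (SE), edgeR adjusted p = 4.8e-05). Migut.N01841, for ARR1, a response regulator of cytokinin signalling, had no count in any ovule library and was the 1 factor that rose at 8 DAP relative to 4 DAP. It had 20.1, 23.0, 11.1 and 9.85 CPM at 8 DAP against 1.03, 1.28 and 0.726 CPM at 4 DAP (log2 fold change 4.52 ± 0.73 (SE), edgeR adjusted p = 0.000152), and 46.8, 39.2, 37.9 and 53.4 CPM at 6 DAP. Migut.H00514, for BLH2, was the 1 factor whose highest other age was the ovule, with 25.3, 24.4, 22.9 and 20.4 CPM at 6 DAP and 12.5, 8.43, 7.34, 5.43 and 5.94 CPM in ovules. The homeodomain-like genes Migut.L00854 and Migut.K00828 were at 23.0, 36.5, 15.4 and 14.997 CPM and 33.3, 37.1, 18.5 and 39.4 CPM at 6 DAP. Of the 9 factors, 7 rose at 4 DAP relative to ovules, the exceptions being Migut.D02416 and Migut.H00514. With the plant as a block, 0.0173 was the adjusted p of Migut.M00283, 0.0114 that of Migut.H01063, 0.0160 that of Migut.L00854 and 0.0490 that of Migut.N01841, so that these calls were lost too.

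Among the 88 genes on no list, several had high levels or large changes. Migut.A00116, which has no annotation here, had 2144, 1886, 2249 and 2269 CPM at 6 DAP, and 77.7, 964, 171 and 132 CPM at 8 DAP against 3.39, 3.24 and 1.67 CPM at 4 DAP (log2 fold change 7.41 ± 1.50 (SE), edgeR adjusted p = 0.000729). Without 8 DAP replicate 2 the log2 fold change was 6.16, adjusted p = 0.00169. Migut.D01439, of glycosyltransferase family 61, had 67.6, 90.2, 45.6 and 87.5 CPM at 6 DAP and the largest fall of the set after 4 DAP, with 0.146, 0.461, 0.467 and 0.0741 CPM at 8 DAP against 7.68, 5.50 and 4.36 CPM at 4 DAP (log2 fold change -3.76 ± 0.84 (SE), edgeR adjusted p = 0.00238). It had no count in ovules, and its level at 4 DAP was at least 20.8-fold higher. Migut.K01323, a protein of unknown function (DUF1666), also fell, to 0.291, 2.00, 0.389 and 0 CPM at 8 DAP, against 9.20, 12.5 and 11.2 CPM at 4 DAP (log2 fold change -3.50 ± 0.84 (SE), edgeR adjusted p = 0.00301). This call was lost without 8 DAP replicate 1 (adjusted p = 0.0123) or 8 DAP replicate 3 (adjusted p = 0.0117). Migut.C00451 had 897, 1094, 575 and 720.3 CPM at 6 DAP, and 229, 226 and 298 CPM at 4 DAP against 0 to 0.151 CPM in ovules, the largest fitted rise of the set (log2 fold change 11.62 ± 0.50 (SE), edgeR adjusted p = 1.9e-12). Its ovule values lay under 3 counts per library, so the size of this rise is uncertain. Migut.G00536 had no count in ovules and 19.4, 19.3 and 29.2 CPM at 4 DAP, at least 80.6-fold higher. Migut.C00473 was the 1 gene that fell at 4 DAP relative to ovules, with 1.33, 1.13 and 0.581 CPM at 4 DAP against 11.9, 17.7, 13.9, 4.89 and 4.79 CPM in ovules (log2 fold change -3.25 ± 0.64 (SE), edgeR adjusted p = 0.000560), beside 43.9, 71.2, 42.2 and 52.4 CPM at 6 DAP.

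Genes with the largest ratios on no list were an annotated phosphoesterase and a DNA glycosylase. The phosphoesterase Migut.D01212 had 281, 291, 206 and 219.6 CPM at 6 DAP, and 2.62, 22.7, 0.622 and 0.741 CPM at 8 DAP against 0.423, 0.0754 and 0 CPM at 4 DAP (log2 fold change 5.60 ± 1.40 (SE), edgeR adjusted p = 0.00401). Without 8 DAP replicate 2 the log2 fold change was 3.43, adjusted p = 0.0320, and without 4 DAP replicate 1, 2 or 3 the adjusted p was 0.0110, 0.0217 and 0.0248. The call was lost each time, as it was with the plant as a block (adjusted p = 0.0157) or the title number as a block (adjusted p = 0.010045). The DNA glycosylase Migut.L01156 had 396, 444, 337 and 231 CPM at 6 DAP, and 6.41, 22.3, 6.07 and 11.6 CPM at 8 DAP against 0 to 0.181 CPM at 4 DAP (log2 fold change 7.08 ± 1.44 (SE), edgeR adjusted p = 0.000733).

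After 6 DAP, the age with the next highest mean was 2 DAP for 67 genes, 8 DAP for 67, 4 DAP for 48 and the ovule for 18. These shares depended on the 2 libraries that stood apart. Without 2 DAP replicate 3, 21 genes had their next highest mean at 2 DAP, 65 at 4 DAP, 94 at 8 DAP and 20 in ovules. Without both libraries the numbers were 26, 79, 71 and 24. These libraries were left out after the data had been seen.

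The 4 libraries of 6 DAP did not give the same levels. The highest library was a median of 1.53 times the lowest over the 200 genes (range 1.03 to 4.22), against a median of 1.29 over all genes past the minimum levels, and 162 genes lay under 2. The 6 DAP library of replicate 2 was the highest for 109 genes (54.5%), against 29.4% of genes past the minimum levels, and replicate 3 the lowest for 99. Migut.N02795, for PSK4, which encodes the precursor of a growth-promoting peptide, varied most, with 65.6, 54.5, 15.5 and 31.4 CPM. The lipid-transfer gene Migut.G01124 and the S1 homologue Migut.F00958 followed at 4.17 and 3.34 times. Migut.J00019, a leucine-rich repeat kinase, was among the steadiest, with 305, 283, 298 and 278 CPM.

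Several genes of the set lie close together by their identifiers, which number genes along the linkage groups. Counting genes whose numbers differ by at most 5, 48 of the 200 formed 22 groups of neighbours, and in 8 groups at least 1 Arabidopsis gene was the homologue of more than 1 neighbour. Migut.M00590, Migut.M00595 and Migut.M00596 were 3 such aspartyl proteases, and Migut.J00313 and Migut.J00316 a pair for LAC17 (Migut.M00596 and Migut.J00313 were picked out once values were known). Identifiers of the set carried 15 letters, A to O, each with 3 to 25 genes. Whether every letter stands for a linkage group was not checked. Reads that match near-identical copies were not counted, since only uniquely mapped reads were kept, so the levels of such neighbours and of the other repeated homologues (5 genes for 1 aspartyl protease, 4 for 1 cystatin) are uncertain.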

How the data were processed

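The authors aligned paired reads of 20 strand-specific libraries (STAR) to a pseudo-reference for each parent, combined both alignments (lapels, suspenders), retained proper pairs that mapped to a single place and assigned these to Phytozome v2.0 gene models (featureCounts). Trimmomatic is named in the submitters' processing notes with no role, and in the study's methods for DNA reads. Versions are not given in the sources used here. The deposited counts are raw, with 1 number per gene and library, and CPM was computed here from them by library total. Total counts ran from 7588155 to 16529554, and intervals or limits from counts cover counting error only. Ages and replicates were taken from the labels, and 0 columns of other samples were found.

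Members and gene lists were chosen with earlier results of these data known. A word match in the list of small secreted proteins that also took in methionine genes was corrected after values were seen. Lists were matched by Arabidopsis homologue or annotation words in the study's supplementary tables. The genes named are the 10 with the largest ratio, the 10 with the highest 6 DAP mean, those next to the limit of 200, up to 3 per list by 6 DAP mean, all transcription factors, the 3 largest rises and falls of each tested comparison among called genes whose libraries do not overlap, and the 3 most and 3 least variable at 6 DAP. Others are said to have been picked out once values were known. Migut.H00967, Migut.L00200 and Migut.B01320 also meet these criteria but are not described above. The call of Migut.B01320 between 8 and 4 DAP was lost without 4 DAP replicate 1, 2 or 3.

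The 20242 genes above 1 CPM in 3 or more libraries were tested with edgeR 4.0.16 (R 4.3.3, limma 3.58.1), with TMM scaling, 1 coefficient per age over all 20 libraries, robust quasi-likelihood fits and Benjamini-Hochberg adjustment at 0.01. SE is the log2 fold change divided by the square root of F. All 200 members passed this filter, 197 of them also without the 6 DAP libraries. A floor of 3 counts per library was used for bounds. Only genes with no count in a group were given bounds, so fitted fold changes that rest on a few counts are uncertain in size. The fit was also run on simulated data, in which only 200 genes changed, at 8 DAP alone. That simulation held no library apart from its age and set no change in genes near 0, so it cannot vouch for such calls. Alternatives were DESeq2 1.42.0, edgeR's likelihood ratio test, RLE factors, library totals, no filter, libraries 1 to 14 alone, each pair of ages alone, replicate blocks and leaving out each library. The library pair that stands apart was left out of the summed levels, and 8 DAP replicate 2 out of the bound for Migut.G01124, after seeing the data.

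By a table of the study, libraries of different ages share maternal plants. This pairing was checked by correlating residuals after removing age means: 28 pairs of 1 plant had a median correlation of 0.0101 and 131 pairs of different plants -0.00965. The labels describe the pools differently, as seeds of several plants, so the identity of plants is uncertain. The authors' own test columns in these tables were not used.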

Additional observations from a re-analysis of the deposited data

Results flagged for a closer look

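The summed CPM of all 200 genes and of the 10 functional lists was examined in each age with 4 or 5 libraries for a single library far from the others of its age (Dixon's criterion), 44 groups in all, of which chance alone would set apart about 1 in 20. It set apart 16, and these were 8 sums in 2 DAP replicate 3 and 8 in 8 DAP replicate 2, each the highest of its age. For all 200 genes the sums were 13764 CPM in 2 DAP replicate 3 and 16515 CPM in 8 DAP replicate 2. Lignin monomer synthesis came to 1757 CPM in 2 DAP replicate 3 and 1246 CPM in 8 DAP replicate 2, and lignin polymerization to 2411 and 1468 CPM in the same libraries. Xylan and other hemicellulose synthesis came to 680.2 CPM in 2 DAP replicate 3 and 187 CPM in 8 DAP replicate 2, cellulose synthesis and wall-patterning cytoskeleton to 1033 and 409 CPM, and membrane transport to 277 and 402 CPM. In 2 DAP replicate 3 alone, lipases and other esterases (463 CPM) and transcription factors (71.3 CPM) stood apart. In 8 DAP replicate 2 alone, pectin and wall loosening (826 CPM) and small secreted proteins (3262 CPM) did. The lists are parts of the same 200 genes in the same libraries, so these sums are not independent. What sets the 2 libraries apart was not tested.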

How the results depend on the processing

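Of 810 repeats of the called changes of 18 named genes between 8 and 4 DAP and of 31 between 4 DAP and ovules, 726 kept the call, 84 lost it and 0 changed direction. DESeq2 gave no adjusted p for 15 of the 200 genes in each comparison, so these could not be called by it. They include 3 named calls between 8 and 4 DAP (Migut.K01192, Migut.A00116 and Migut.A00117), whose DESeq2 repeats are not among the 810. Genes higher at 8 than at 4 DAP numbered 35, and 23 with library totals, 69 with libraries 1 to 14 alone, 58 with the 2 ages alone (191 of the 200 genes tested) and 14 to 34 when each library was left out. Genes lower there numbered 4, and 7 with the likelihood ratio test, 6 with DESeq2, 9 with library totals, 16 with libraries 1 to 14, 12 with the 2 ages alone, 6 with the title number as a block and 1 to 12 when each library was left out. Genes higher at 4 DAP than in ovules numbered 79 and stayed between 63 and 75 when each library was left out. With the maternal plant as a replicate block they numbered 30, and 2 were lower. Over both comparisons together, 22 of the 49 named calls were lost with this block. Between 8 and 4 DAP this block gave 30 higher and 5 lower. Genes lower at 4 DAP than in ovules numbered 1, and 5 with DESeq2, 4 with the likelihood ratio test, 2 with library totals, 2 with the title number as a block, 9 with libraries 1 to 14, 3 with the 2 ages alone and 1 to 2 when each library was left out. The replicate numbers in the titles do not pair the libraries (median residual correlation -0.0281 in 36 pairs of 1 number, 0.00381 in 123 of different numbers), and as a block they gave 33 higher between 8 and 4 DAP and 68 higher between 4 DAP and ovules. The causes of these differences were not tested. The next highest mean was at 2 DAP for 67 genes, and for 21 without 2 DAP replicate 3, 76 without 8 DAP replicate 2 and 26 without both. It was at 4 DAP for 48 genes, and for 55 without 8 DAP replicate 2 and 79 without both. The selection kept 181 of the 200 genes with TMM-scaled CPM, 187 with medians in place of means, 200 with a pseudocount of 1 CPM, 198 with 0.1 CPM and 190 to 200 without each library. Depth limits the lowest values: 3 counts are 0.181 to 0.395 CPM.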
